A study of Mus musculus with 4 samples.

Results

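Bone is a collagen scaffold hardened by calcium phosphate, and 10 mouse genes of its mineral and noncollagen matrix were examined here by chromatin accessibility: Alpl, Bglap, Bglap2, Ibsp, Spp1, Sparc, Dmp1, Mepe, Enpp1 and Ank. Their members are ATAC-seq peaks, stretches of open chromatin that a transposase can cut. A peak was assigned to a gene when it overlapped the gene or the 20 kb upstream of its start in GENCODE vM21 (GRCm38, the assembly that mm10 names). The rule found 61 of 117282 peaks, and the rule used no measured value. The Ank window held 20 peaks, Alpl 12, Sparc 6, Dmp1, Enpp1 and Spp1 5 each, Bglap2 and Ibsp 3 each, Mepe 2 and Bglap 1. 1 peak, at the start of Bglap, lay in the windows of both Bglap and Bglap2 and was counted once. A promoter peak, one that came within 1 kb of a protein-coding start, was present at 9 of the 10 genes and absent from Mepe.

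Mineral formation depends on the balance between phosphate and pyrophosphate, an inhibitor of crystal growth. Enpp1 encodes the ectoenzyme that makes pyrophosphate from ATP, Ank encodes a membrane protein that raises pyrophosphate outside the cell, and Alpl encodes tissue-nonspecific alkaline phosphatase, which breaks pyrophosphate down. Ibsp, Spp1, Dmp1 and Mepe encode acidic phosphoproteins of the SIBLING family, which bind mineral or cell surfaces and lie side by side on chromosome 5. Bglap and Bglap2 are neighbouring copies of the osteocalcin gene, a late osteoblast product, and Sparc encodes osteonectin, which binds collagen and calcium. Ibsp and Bglap mark osteoblasts, whereas Dmp1 and Mepe are best known from osteocytes embedded in bone.

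The cells were mesenchymal stem cells (MSCs) from mouse bone, 2 samples from old mice of 18 to 22 months and 2 from young mice of 3 to 5 months. All 4 samples were cultured at 2% O2, so low oxygen was shared by both groups. The study's methods describe C57BL/6N mice and a sort for CD45-, TER119-, Sca-1+ and CD140a+ cells grown out from bone chips, and they describe it for young cells. The paper calls its ATAC-seq experiments on hypoxia- and normoxia-cultured young cells biologically independent, but neither it nor the labels say whether the old and young samples here came from separate animals or cultures, so p-values measure the spread between these samples, which may be technical.

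The deposited values were whole multiples of 1 step per sample, so they were read as scaled counts not divided by peak length. On that reading, 3 counts were worth 0.921 to 1.06 units. The scale was assumed to be 10000000 reads of the library, which puts the library totals at 28259470 to 32559794 counts. Here each value was divided by the sample's RLE factor (relative log expression, 0.813 to 1.15). This sets the typical peak to equal height in the 4 samples. Differences below are therefore relative to the typical peak. As deposited, the median peak was 0.27 lower in old MSCs on the log2 scale. Old replicate 1 had the lowest factor and the fewest counts in peaks, and old replicate 2 the lowest mitochondrial share, 6.52% of counts in peaks against 13.5% to 15.7% in the other samples. Ly6a and Pdgfra, which encode the sorted antigens Sca-1 and CD140a, both had promoter peaks, summing to 496 and 547 in old and 465 and 422 in young MSCs. Of 5 osteoblast markers, all had promoter peaks, with sums of 1036 and 1465 in old and 1095 and 1129 in young samples, most of it and of the gap between the old samples at Col1a1 (721 and 1100 in old, 783 and 852 in young). Of 5 osteocyte markers, 2 had one, Dmp1 and Fgf23, and Mepe, Phex and Sost had none. Promoter peaks were also absent at the blood markers Ptprc and Itgam, whereas the 3 blood genes with one summed to 355 and 502 in old and 488 and 421 in young samples, most of it at Cd68. The endothelial list, with a promoter peak at 3 of 4 genes (none at Cdh5), summed to 76.6 and 78.4 against 87.9 and 85.2. The sum was lower in both old samples through Tek (27.1 and 28.1 in old, 50.1 and 43.0 in young). Pecam1 (18.5 and 21.3 against 13.9 and 17.5) and Kdr (31.0 and 29.0 against 23.9 and 24.6) were higher in both old samples. The part of this list in the results was not tested. In the bulk signal of a sample, fewer open cells and less opening per cell cannot be told apart.

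The sequences on which the comparison turns are of 2 kinds. The first are the 250 bases upstream of the RefSeq start (GRCm38.p6) of 6 members, shown because the promoter results below compare these genes. Capitals mark the RUNX letters TGTGGT on either strand (ACCACA when reversed), the homeodomain letters TAATTA, and the SP/KLF letters GGGCGG on either strand (CCGCCC when reversed). Each sequence runs 5′ to 3′ on the gene's strand. They are Alpl at chr4:137796385-137796634 (minus strand), Bglap at chr3:88384467-88384716 (minus strand), Dmp1 at chr5:104202367-104202616, Mepe at chr5:104325079-104325328, Spp1 at chr5:104434861-104435110 and Ank at chr15:27466427-27466676 (plus strand for these 4).
Alpl: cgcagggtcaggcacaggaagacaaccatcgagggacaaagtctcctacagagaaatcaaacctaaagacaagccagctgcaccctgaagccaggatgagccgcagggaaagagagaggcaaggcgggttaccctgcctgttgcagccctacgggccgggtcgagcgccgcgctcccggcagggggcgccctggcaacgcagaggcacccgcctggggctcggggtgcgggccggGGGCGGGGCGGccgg
Bglap: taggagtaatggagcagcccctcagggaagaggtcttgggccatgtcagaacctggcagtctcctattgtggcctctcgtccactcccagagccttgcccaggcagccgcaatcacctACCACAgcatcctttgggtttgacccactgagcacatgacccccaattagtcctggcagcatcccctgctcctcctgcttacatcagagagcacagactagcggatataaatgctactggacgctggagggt
Dmp1: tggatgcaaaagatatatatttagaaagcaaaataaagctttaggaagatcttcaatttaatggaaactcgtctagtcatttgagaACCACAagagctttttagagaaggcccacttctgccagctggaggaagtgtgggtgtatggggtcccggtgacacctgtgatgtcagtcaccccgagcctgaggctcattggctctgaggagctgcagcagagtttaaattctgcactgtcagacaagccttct
Mepe: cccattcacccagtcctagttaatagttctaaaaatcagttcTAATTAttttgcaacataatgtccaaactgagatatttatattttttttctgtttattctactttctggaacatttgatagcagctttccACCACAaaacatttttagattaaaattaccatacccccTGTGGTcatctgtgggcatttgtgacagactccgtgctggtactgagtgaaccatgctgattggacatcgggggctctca
Spp1: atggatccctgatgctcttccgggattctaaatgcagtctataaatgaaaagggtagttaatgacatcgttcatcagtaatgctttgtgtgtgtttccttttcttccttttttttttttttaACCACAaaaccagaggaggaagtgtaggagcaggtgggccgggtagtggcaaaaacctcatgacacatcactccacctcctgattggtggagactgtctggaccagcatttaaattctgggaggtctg
Ank: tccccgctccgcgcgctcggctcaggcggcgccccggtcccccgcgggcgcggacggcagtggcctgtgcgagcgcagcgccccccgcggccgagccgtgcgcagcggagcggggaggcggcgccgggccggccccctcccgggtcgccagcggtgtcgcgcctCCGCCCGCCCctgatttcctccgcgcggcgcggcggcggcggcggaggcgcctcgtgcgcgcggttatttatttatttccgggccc

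The second kind are the central 300 bases of the 4 member peaks with the lowest unadjusted p in each direction, Ank and Alpl among those higher in old MSCs and Dmp1 and Mepe among those lower. They lie at chr15:27496951-27497250 in an intron of Ank, chr4:137816351-137816650 upstream of Alpl (minus strand), chr5:104187101-104187400 upstream of Dmp1 and chr5:104328251-104328550 in an intron of Mepe. Capitals mark the RUNX letters TGTGGT and the TEAD letters GGAATG, which read CATTCC on the opposite strand.
Ank intron: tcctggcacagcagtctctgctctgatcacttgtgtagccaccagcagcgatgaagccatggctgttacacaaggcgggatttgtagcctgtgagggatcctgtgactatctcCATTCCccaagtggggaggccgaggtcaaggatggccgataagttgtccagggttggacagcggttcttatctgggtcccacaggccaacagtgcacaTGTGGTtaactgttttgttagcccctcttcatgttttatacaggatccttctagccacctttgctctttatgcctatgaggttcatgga
Alpl upstream: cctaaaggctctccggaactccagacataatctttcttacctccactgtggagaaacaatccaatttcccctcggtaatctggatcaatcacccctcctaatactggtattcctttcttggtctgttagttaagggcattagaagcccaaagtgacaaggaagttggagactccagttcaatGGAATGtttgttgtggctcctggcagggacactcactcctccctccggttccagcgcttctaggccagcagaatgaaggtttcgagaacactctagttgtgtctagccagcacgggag
Dmp1 upstream: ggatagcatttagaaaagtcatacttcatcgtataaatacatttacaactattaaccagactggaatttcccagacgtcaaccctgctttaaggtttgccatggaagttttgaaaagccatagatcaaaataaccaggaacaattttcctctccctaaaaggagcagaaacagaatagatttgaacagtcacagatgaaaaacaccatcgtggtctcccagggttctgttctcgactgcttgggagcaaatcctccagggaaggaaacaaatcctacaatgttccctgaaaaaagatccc
Mepe intron: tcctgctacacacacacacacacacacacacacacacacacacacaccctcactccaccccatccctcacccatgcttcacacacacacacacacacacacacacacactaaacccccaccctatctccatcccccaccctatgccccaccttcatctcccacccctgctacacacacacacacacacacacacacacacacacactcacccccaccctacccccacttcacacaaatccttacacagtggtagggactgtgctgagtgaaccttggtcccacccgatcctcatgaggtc
The Ank centre held a RUNX and a TEAD match, the Alpl centre a TEAD match, and the Dmp1 and Mepe centres none of the 6 motifs searched. The Mepe centre is rich in repeated CA letters.

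At the 61 peaks, accessibility of old and young MSCs was close, and the clearest departure was the body of Ank, which was more open in both old samples. No member peak passed limma's adjusted p of 0.01, a level that 0.0563% of all peaks passed (66 of 117282). At an adjusted p of 0.05, which 1.12% of all peaks passed, 1 member peak did, in an intron of Ank. At an unadjusted p under 0.05, 11 member peaks were higher in old MSCs, where 7.49% of all peaks were, and 3 were lower, where 8.87% were. Both old values lay above both young values at 26 member peaks, against 23.2% of all peaks, and below them at 10, against 24.2%. The median log2 difference, old minus young, was 0.20 over the 61 peaks and 0.0011 over all peaks, and 44 of the 61 were higher. Of the 26 peaks whose old values were both above the young, 16 belonged to Ank. Without Ank, 10 of 41 peaks lay wholly above and 9 wholly below, and the median was 0.031.

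**Figure D1:**
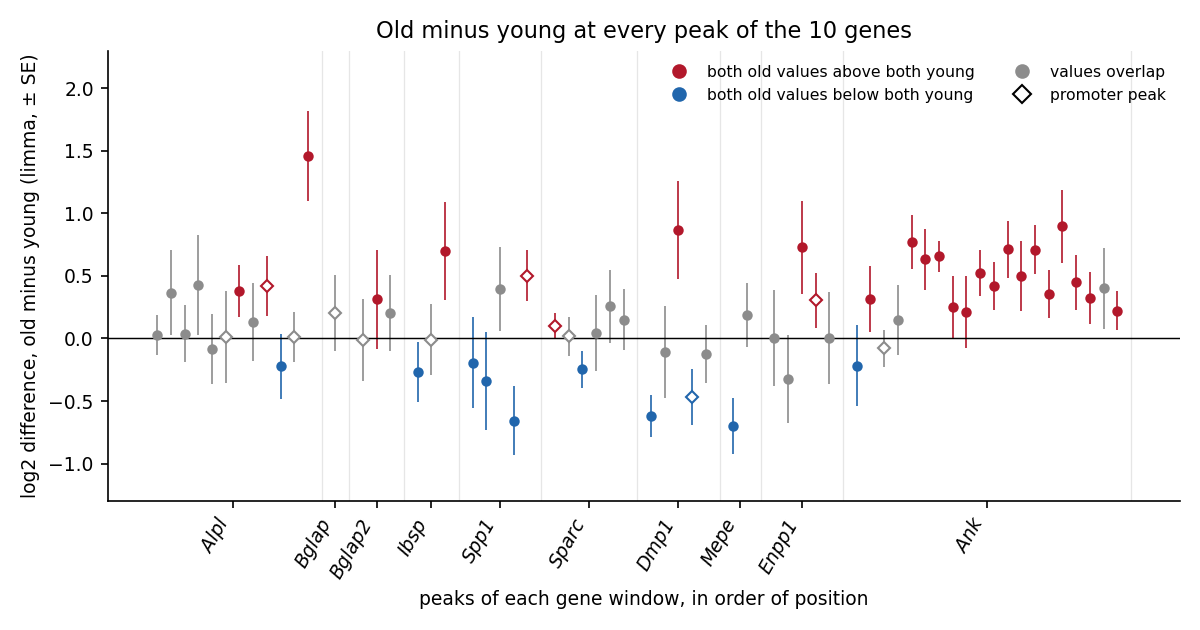
Each point is 1 member peak, in order of position within its gene window (x axis), with the limma log2 difference of old minus young and its standard error (y axis, 2 samples per group). Red and blue points have both old values above or below both young values, grey points overlap, and open diamonds are promoter peaks. The run of red points at Ank holds 16 of its 20 peaks, whereas the points of the other genes scatter around 0.

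Summed over each gene window, the level of accessibility per kb of peak was highest at Dmp1 and Sparc. The Dmp1 window held 28.9 and 26.4 scaled units per kb in old and 34.8 and 38.6 in young MSCs, a mean of 32.2. A single upstream peak at 61.0 units per kb weighed most in it, and the other Dmp1 peaks had 8.93 to 27.1. Sparc held 24.3 and 26.1 in old and 24.5 and 24.9 in young MSCs, a mean of 24.9, and no sample reached the lowest value of Dmp1. All other windows lay below both, with means of 15.3 at Enpp1, 15.3 at Mepe, 14.6 at Bglap, 14.2 at Ibsp, 13.1 at Ank, 12.9 at Bglap2, 12.6 at Alpl and 11.9 at Spp1. Neighbours among these 8 overlapped over the 4 samples, so their order was not resolved.

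**Figure D2:**
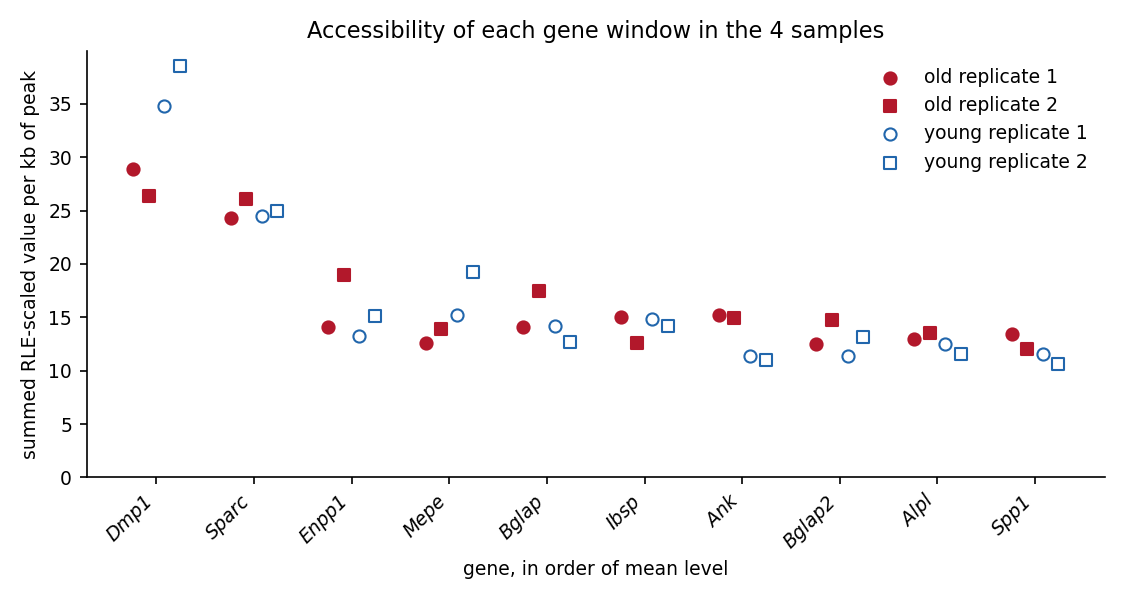
Summed RLE-scaled value per kb of peak (y axis) in each of the 4 samples (filled red, old; open blue, young) for the 10 gene windows (x axis), in order of mean level. Dmp1 and Sparc stand above the other 8, and at Ank both old samples (15.2 and 14.9) lie above both young samples (11.4 and 11.0).

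Groups did not overlap at 5 of the 10 windows: 3 lay wholly above in old MSCs, as did 15.6% of 18099 windows of protein-coding genes, and 2 wholly below, as did 25.4%. The summed value of Ank was 1449 and 1418 in old and 1081 and 1049 in young MSCs, a difference of 0.43 on the log2 scale or 1.35-fold. Alpl, with 424 and 441 in old and 407 and 376 in young, and Spp1, with 96.8 and 86.9 against 83.6 and 76.6, were also higher, by 0.14 and 0.20. Dmp1, with 176 and 161 in old and 212 and 235 in young, and Mepe, with 50.3 and 55.8 against 60.7 and 77.2, were lower, by log2 differences of -0.41 and -0.37. On the values as deposited, Ank kept a higher sum in old MSCs (0.14) and Dmp1 and Mepe a lower one (-0.70 and -0.66), whereas Alpl and Spp1 changed sign (-0.15 and -0.092). The sums of Bglap, Bglap2, Ibsp, Sparc and Enpp1 overlapped between the groups. A limma fit over the same 18099 summed windows, chosen after the data were seen, called none of them at an adjusted p of 0.01 (0%), and 7.81% had an unadjusted p under 0.05. Ank ranked 77 in that fit (standard error 0.097, unadjusted p = 0.0016, adjusted p = 0.38) and Dmp1 ranked 586 (standard error 0.14, unadjusted p = 0.019, adjusted p = 0.59). With 2 samples against 2, an exact two-sided permutation test of a single value cannot go below 0.33, and all 5 windows without overlap were at that floor.

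Ank, the membrane regulator of pyrophosphate, lies on the plus strand of chromosome 15 from 27466677 to 27594909. Its promoter peak (27465301 to 27470000, over the first coding exon) was open to a like degree in both groups, with 159 and 172 in old and 170 and 180 in young MSCs. The limma difference there was -0.078 with a standard error of 0.15 (adjusted p = 0.84). Downstream of it the picture changed. The largest Ank peak, 24000 bp wide (27485101 to 27509100, intronic, and overlapping an exon of the noncoding gene B230362B09Rik), held 408 and 399 in old and 259 and 252 in young MSCs. Both old samples were far above both young ones, and the samples of a group nearly coincided. The difference was 0.66 with a standard error of 0.13 and a limma adjusted p of 0.022, the lowest of all member peaks. That p depended on the processing. It was 0.23 with plain moderation (neither trend nor robust) and 0.35 on the values as deposited, where the difference was 0.37. In the other limma settings with all samples it was 0.010 to 0.029. With a sample left out the difference was 0.64 to 0.68.

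Of the Ank body, 4 further peaks were named after their values were seen because they were higher in old MSCs by over 1.6-fold, so their direction was fixed by the choice. An intronic peak from 27475901 to 27480100, over an exon of Tiaf2, held 74.4 and 67.1 in old and 49.8 and 33.8 in young MSCs (difference 0.77 ± 0.22 SE, limma adjusted p = 0.084). A peak over a coding exon, from 27560701 to 27566900, held 74.4 and 82.3 against 47.1 and 47.8 (0.71 ± 0.19 SE, adjusted p = 0.073). In neither peak did the groups overlap. A peak from 27545101 to 27549200 held 40.4 and 36.0 in old and 23.9 and 22.0 in young MSCs, and one from 27572001 to 27573900 held 17.2 and 14.9 against 8.62 and 7.72, the steepest ratio within Ank (0.90 ± 0.29 SE, adjusted p = 0.13). The densest Ank peak outside the promoter (27569001 to 27571900, over a coding exon and the microRNA gene Mir7117) held 68.4 and 65.9 in old and 51.7 and 52.8 in young MSCs, a difference of 0.35 ± 0.19 SE with adjusted p = 0.38.

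All 17 Ank peaks downstream of the promoter peak were higher in old MSCs, 15 of them without overlap, with a median of 0.45 and a range of 0.15 to 0.90. Of these, 9 lay in an intron of the overlapping gene Otulin as well, a deubiquitinase gene, and 8 did not, and the medians of the 9 and the 8 were 0.45 and 0.47. The 2 peaks upstream of the gene went opposite ways, with 7.75 and 7.01 in old against 8.29 and 9.20 in young MSCs at the farther, and 18.5 and 20.7 against 14.6 and 16.6 at the nearer. For comparison, the 31184 peaks of 2 kb or more had a median difference of 0.0019. Their median width was 3000 bp, against 4100 bp for these 17 Ank peaks. The median of chromosome 15 lay 0.015 above that of the autosomes. The part of peak width or chromosome was not tested. In the 200 kb before the window, which held no other protein-coding gene, 7 of 12 peaks were higher in both old samples and 0 lower, with a median of 0.27. In the 200 kb after Ank, over Otulin, Otulinl and Trio, 1 of 23 was higher in both old samples and 12 were lower, with a median of -0.26. Of all peaks, 23.2% were higher in both old samples and 24.2% lower. Peaks higher in old MSCs thus extended upstream of the Ank start and stopped near its 3′ end. On the values as deposited, 14 of the 20 Ank peaks were still higher in old MSCs, with a median of 0.14 against -0.27 for all peaks.

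**Figure D3:**
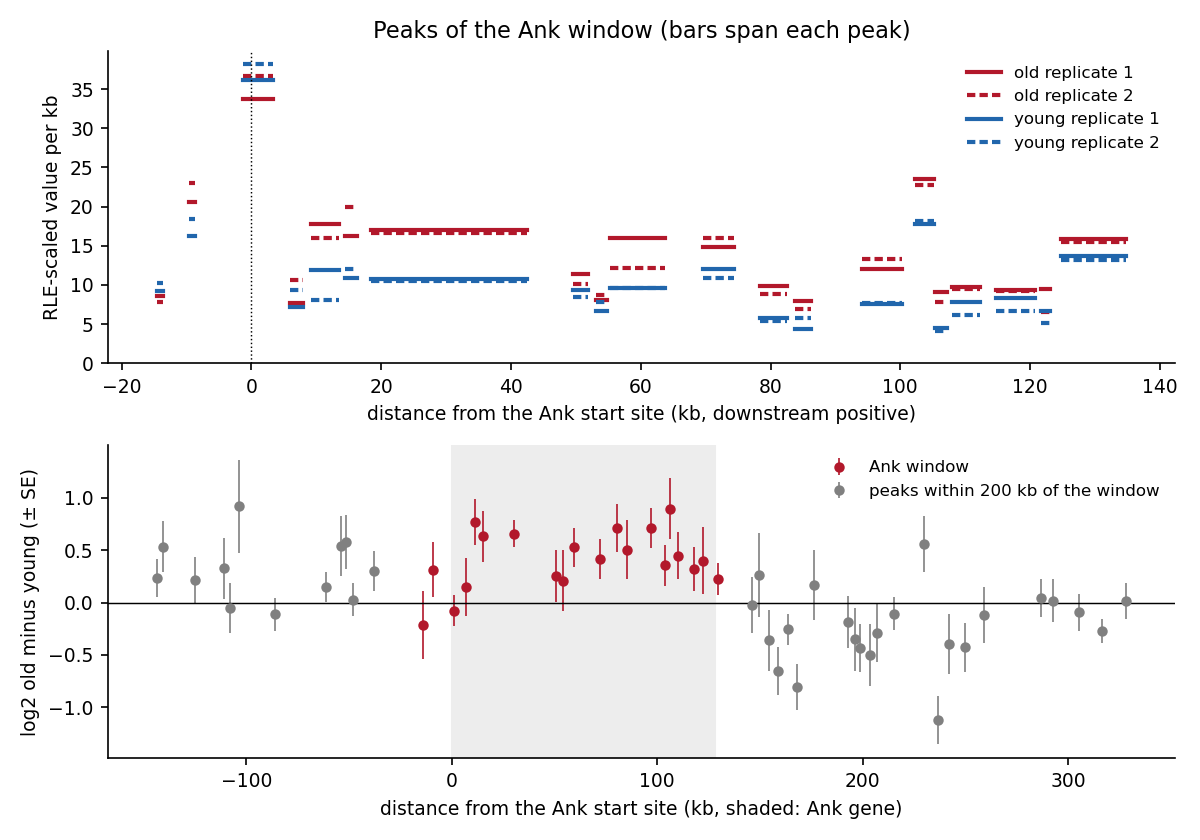
Upper panel, RLE-scaled value per kb (y axis) of each Ank peak in the 4 samples, drawn over the width of the peak against the distance from the Ank start (x axis, kb). Lower panel, limma log2 difference of old minus young with its standard error for the Ank window (red) and the peaks within 200 kb of it (grey), where 1 of 23 peaks after the gene lay wholly above and 12 wholly below.

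Enpp1, which makes the pyrophosphate that reaches the matrix, had 5 peaks along its minus-strand gene on chromosome 10. Its promoter peak (24710701 to 24712700, over the first coding exon) held 41.3 and 53.7 in old and 38.5 and 37.4 in young MSCs. The groups did not overlap, but the difference of 0.30 had a standard error of 0.22 (limma adjusted p = 0.52). A weak intronic peak from 24706401 to 24707000, named after its values were seen, held 7.75 and 6.40 against 3.32 and 4.45, which are 18 and 21 counts against 10 and 15 (0.73 ± 0.37 SE, adjusted p = 0.34). The densest peak away from the promoter lay over a coding exon (24647901 to 24648800) and split the replicates rather than the ages, with 6.88 and 17.1 in old and 7.63 and 15.4 in young MSCs.

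Alpl, whose enzyme removes pyrophosphate, had 12 peaks on the minus strand of chromosome 4 and 3 promoter peaks at different starts along the gene. The outermost, 137792601 to 137796900 at the start of the gene, held 60.7 and 50.9 in old and 57.7 and 52.8 in young MSCs. The innermost, 137765401 to 137766100, was among the weakest promoter peaks of the data, with 4.73 and 6.10 in old and 5.64 and 5.05 in young, that is 11 to 20 counts. Neither start differed in accessibility between the ages beyond the spread of the samples. The middle one, 137783401 to 137785000, held 28.8 and 41.8 in old and 26.2 and 25.2 in young MSCs (0.42 ± 0.24 SE, adjusted p = 0.41), and its excess rested mainly on old replicate 2. The densest Alpl peak elsewhere, intronic at 137787801 to 137789000, went the other way without overlap, with 15.9 and 18.3 against 21.2 and 19.0 (-0.22 ± 0.26 SE, adjusted p = 0.72).

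The largest ratio among all member peaks was at the far edge of the Alpl window. This intergenic peak, 137816201 to 137816800, lay 19817 bp upstream of the start and held 12.0 and 11.0 in old and 4.64 and 2.67 in young MSCs. In counts that was 28 and 36 against 14 and 9, so the depth behind the young values is small. The difference was 1.46 ± 0.36 SE on the log2(value + 1) scale, with a limma adjusted p of 0.054. The next peak beyond the window, 39317 bp upstream, held 15.5 and 22.0 in old and 16.6 and 13.4 in young MSCs, with overlap.

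Among the SIBLING genes, the windows of Dmp1 and Mepe were lower in both old samples, that of Spp1 was higher and that of Ibsp overlapped. Each of these differences between the groups rested mostly on a single peak, described below. Of the other Dmp1 peaks, the promoter peak was lower, a weak one was higher and the rest overlapped. Dmp1, which encodes dentin matrix protein 1, had its densest peak 14513 bp upstream of its start (104186401 to 104188100, intergenic). This peak lay between Dspp and Dmp1, nearer to the end of Dspp. It held 81.8 and 81.4 in old and 121 and 131 in young MSCs and at 61.0 units per kb lay at the 97.9 percentile of density over all peaks. The old samples nearly coincided and both lay below the young, with a difference of -0.62 ± 0.17 SE and a limma adjusted p of 0.075. The Dmp1 promoter peak (104201101 to 104202500, ending 113 bp before the start) held 26.7 and 27.8 in old and 36.2 and 40.1 in young MSCs, also without overlap (-0.47 ± 0.22 SE, adjusted p = 0.31). In contrast, a weak peak 4713 bp upstream, from 104197301 to 104197900 and named after its values were seen, held 5.59 and 8.84 in old and 4.31 and 2.67 in young MSCs (0.87 ± 0.39 SE, adjusted p = 0.28). It covers a second RefSeq start of Dmp1 at 104197575 and rests on 13 and 29 counts against 13 and 9.

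Mepe, which encodes a phosphoglycoprotein of the bone matrix, had 2 peaks, both intronic. The denser (104327301 to 104329500) held 28.8 and 28.7 in old and 42.1 and 53.1 in young MSCs, the lowest difference of all member peaks (-0.70 ± 0.22 SE, limma adjusted p = 0.12). The other, 104332201 to 104334000, overlapped between the groups, with 21.5 and 27.1 against 18.6 and 24.0. Mepe thus lacked a promoter peak while its introns were accessible in all 4 samples.

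Ibsp, encoding bone sialoprotein, had a weak promoter peak (104298401 to 104299700) with 14.6 and 11.9 in old and 12.9 and 13.7 in young MSCs, which overlapped. Its densest other peak, 10371 bp upstream (104287601 to 104288800), held 23.7 and 20.4 against 27.2 and 26.1 (-0.27 ± 0.24 SE, limma adjusted p = 0.63). An intronic peak of few counts (104303101 to 104303600, named after its values were seen) leaned the other way, with 6.88 and 5.49 against 4.31 and 2.67 (0.70 ± 0.39 SE, adjusted p = 0.39).

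Spp1, encoding osteopontin, was the SIBLING gene whose promoter was more open in both old samples. Its promoter peak (104432601 to 104437300, over the first exons and an exon of the noncoding gene Gm42793) held 62.4 and 57.6 in old and 43.1 and 41.0 in young MSCs. The difference of 0.50 ± 0.20 SE had an unadjusted limma p of 0.022 and an adjusted p of 0.22, the lowest among the 12 member promoter peaks. The nearest upstream peak, 6118 bp away (104428201 to 104429000), moved against it, with 12.0 and 11.3 in old and 21.2 and 16.9 in young MSCs (-0.66 ± 0.28 SE, adjusted p = 0.24). The promoter peak and this nearest upstream peak therefore differed in sign, and both signs were kept on the values as deposited (0.22 and -0.93). Farther upstream, the peak from 104425801 was higher in old MSCs (0.39, with overlap). Those from 104423801 and 104416901 were lower (-0.34 and -0.19).

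Over the 15 peaks of the 4 SIBLING members, 10 were lower in old MSCs and 5 higher, and the median was -0.12. Of the 15, 7 lay wholly below and 3 wholly above, against 24.2% and 23.2% of all peaks. At an unadjusted p under 0.05, 3 were lower and 2 higher, against 8.87% and 7.49% of all peaks. The whole cluster from Dspp to Spp1, chr5:104170712-104441050, held 34 peaks, of which 24 were lower, 14 wholly below and 6 wholly above, with a median of -0.18. The 19 peaks outside the members' windows divided like the 15 within, with 7 wholly below and 3 wholly above. For all of chromosome 5 the median lay -0.0083 from that of the autosomes.

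**Figure D4:**
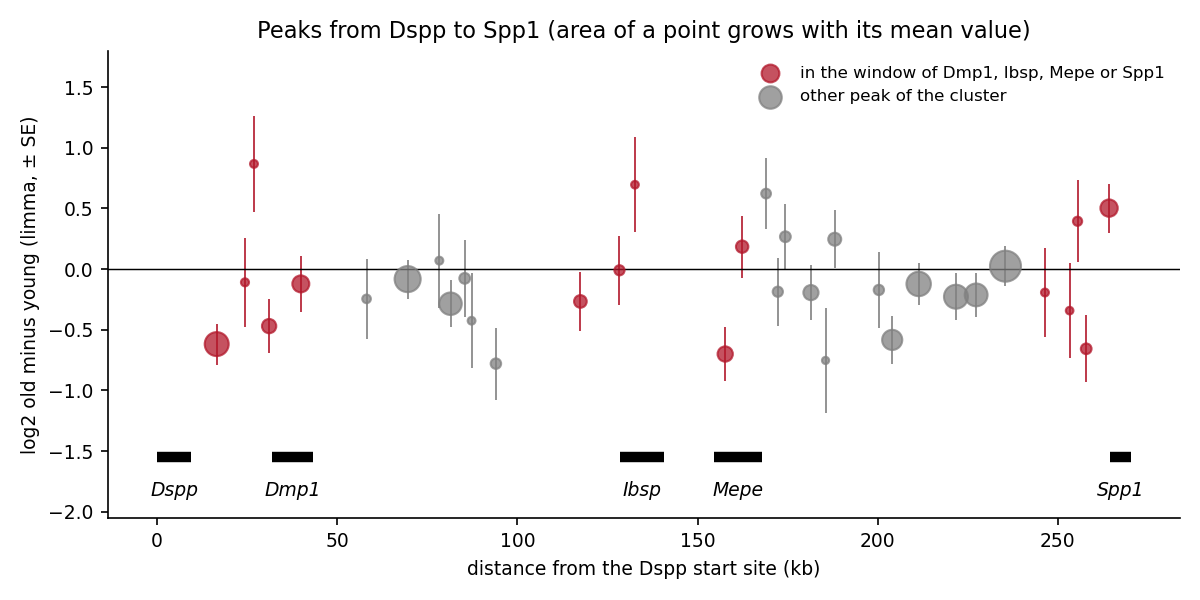
Limma log2 difference of old minus young with its standard error (y axis) for the 34 peaks from Dspp to Spp1 against distance from the Dspp start (x axis, kb). Point area grows with the mean scaled value, red points are in the windows of the 4 members, grey points elsewhere, and black bars are genes. The densest Dmp1 peak, at -0.62, lies below 0 and the Spp1 promoter, at 0.50, above it.

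The osteocalcin genes had weak signal. The Bglap promoter peak (88384301 to 88385000, over the first coding exon) held 9.90 and 12.2 in old and 9.95 and 8.90 in young MSCs, which is 23 and 40 against 30 and 30 counts. The Bglap2 promoter peak (88378501 to 88379400) held 8.18 and 11.9 against 7.96 and 12.5, or 19 and 39 against 24 and 42 counts. In both the groups overlapped, with differences of 0.20 ± 0.31 SE and -0.014 ± 0.33 SE and limma adjusted p of 0.79 and 0.99. A further peak of the Bglap2 window, 300 bp wide over an exon of Gm6821 (88381901 to 88382200), held 5.59 and 3.96 against 3.65 and 3.56. The standard errors at these counts were larger than the 0.13 of the widest Ank peak. The 2 genes are also nearly the same sequence, with 97.4% identity over the gene (939 of 964 aligned positions) and 287 of 302 over the 300 bp upstream. Reads of one copy may therefore be placed in the other or be lost. The study's methods, written for hypoxia- and normoxia-cultured cells, set a minimum mapping quality for peak calling. The copies' values and their low level are uncertain, and the part of lost reads was not tested.

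Sparc, encoding osteonectin, had 6 peaks. A single peak of 34900 bp (55386101 to 55421000) covered nearly the whole gene on chromosome 11 and held 723 and 776 in old and 699 and 700 in young MSCs. Both old values were higher, by 0.099 ± 0.10 SE (limma adjusted p = 0.68), and on the values as deposited the sign turned (-0.19). Chromosome 11 as a whole lay 0.093 above the autosomes, 0.17 in old replicate 2 and 0.025 in old replicate 1. The part of the chromosome in the difference of this wide peak was not tested. The second promoter peak, upstream of the gene (55423401 to 55427000), held 143 and 147 in old and 136 and 151 in young MSCs. The densest member peak of all, 4318 bp upstream of Sparc (55427501 to 55429500), held 173 and 199 in old and 212 and 229 in young MSCs, at the 99.8 percentile of density over all peaks. Its groups did not overlap, and the difference was -0.25 ± 0.15 SE with an adjusted p of 0.42.

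Over the 12 member promoter peaks the median difference was 0.014, with 4 wholly above, 1 wholly below and 1 at an unadjusted p under 0.05. Over all 16205 promoter peaks of protein-coding genes the median was -0.028, with 15.7% wholly above, 25.7% wholly below and 9.65% at an unadjusted p under 0.05. The 49 other member peaks, which include the Ank body, had a median of 0.25. In level per kb, the member promoters were mostly modest among those promoter peaks. The promoter peak upstream of Sparc lay at the 72.1 percentile and that of Ank at 66.2. Dmp1 lay at 42.5, Enpp1 at 38.3, the wide Sparc peak at 37.0, and the 3 Alpl peaks at 33.4, 19.5 and 2.88. The remaining promoters were lower still, Bglap at 23.9, Bglap2 at 14.8, Spp1 at 13.5 and Ibsp at 11.5.

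**Figure D5:**
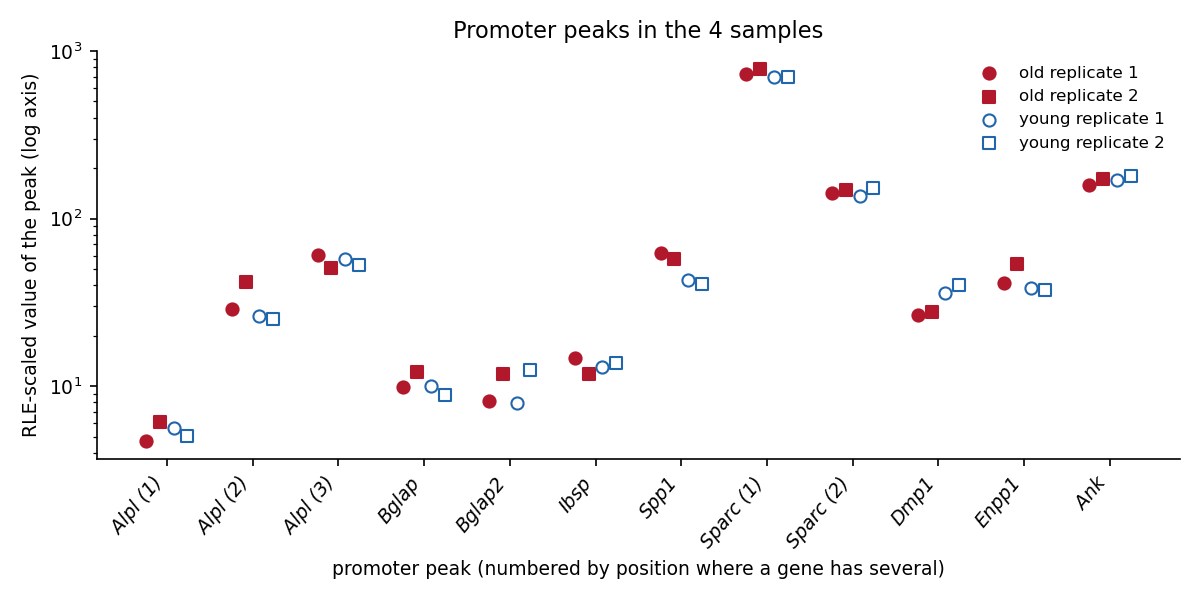
RLE-scaled value (y axis, log scale) of the 12 member promoter peaks in the 4 samples (filled red, old; open blue, young; x axis, the gene, numbered by position where a gene has several). The wide Sparc peak stands highest, at 699 to 776, and at the Spp1 peak both old samples (62.4 and 57.6) lie above both young (43.1 and 41.0).

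RefSeq gave 12 promoters for 9 of the 10 genes, each of 300 bases (250 before and 50 after the start), and none for Bglap2. The RUNX letters TGTGGT were present on either strand in 6 of the 12 (Bglap, Dmp1, Mepe, Spp1, Enpp1 and Sparc 1 promoter each), against 16.8% of 32851 promoters. The homeodomain letters TAATTA were in 2, at Mepe and at an inner start of Spp1, against 5.29%, and the SP/KLF letters GGGCGG in 3, at Alpl, Enpp1 and Ank, against 35.7%. The AP-1 letters TGANTCA, the TEAD letters GGAATG and the CRE letters TGACGTCA were in 0 of the 12, against 7.81%, 14.7% and 1.79%. In the central 300 bases of the 61 member peaks the shares were near those of all peaks for RUNX (15 of 61, 24.6% against 26.0%), TEAD (14, 23.0% against 20.9%) and AP-1 (11, 18.0% against 21.5%). Homeodomain letters were at 3 (4.92% against 6.78%), SP/KLF letters at 2 (3.28% against 9.73%) and CRE letters at 0 (against 0.46%). A match describes letters and does not show that a factor binds there. The genes with a RUNX match included Dmp1, whose promoter peak was lower in both old samples, and Spp1, whose promoter peak was higher.

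A further 19 genes of mineralization and of the noncollagen matrix gave the setting. All had a peak and 15 a promoter peak, with 98 peaks in total. Of these, 52 were higher and 46 lower in old MSCs, and the median was 0.011. Of the 98, 22 lay wholly above and 25 wholly below, near the 23.2% and 24.2% of all peaks. At an unadjusted p under 0.05, 9 were higher and 8 lower, against 7.49% and 8.87% of all peaks. An adjusted p of 0.05, which 1.12% of all peaks passed, was passed by 2 (in the windows of Thbs1 and Phex), and 0 passed 0.01. The median over a gene's peaks ran from -0.64 at Postn, the periostin gene, where all 6 peaks were lower and 4 wholly so, to 0.50 at Phospho1, which encodes a phosphatase of matrix vesicles and had 3 peaks. Bglap3, an osteocalcin-like neighbour of Bglap2, had 4 peaks with a median of 0.26, and Dspp, the first gene of the SIBLING cluster, had 3 peaks that were all lower, with a median of -0.24.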

How the data were processed

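ATAC-seq of 2 old and 2 young samples of mouse bone MSCs was used. The authors deposited 1 score per peak and sample under the name RPKM. Of these, 100% were whole multiples of 1 step per sample (tolerance 0.01). They were therefore read as scaled counts with no division by peak length. The scale, counts per 10000000 reads of the library, was assumed. Per the labels, reads were processed with Bowtie2 and Picard on mm10. The study's methods, written for hypoxia- and normoxia-cultured cells, name chromstaR for the peaks and peak values. Versions are not given in the sources used here. Every peak of the table fitted the chromosome lengths of GRCm38.

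Values were divided by RLE factors with a geometric mean of 1, and log2(value + 1) was tested with limma (version 3.58.1, R 4.3.3), using lmFit and a robust eBayes with a trend. Benjamini-Hochberg adjustment ran over all peaks, with a threshold of 0.01. Differences are thus on the log2(value + 1) scale and understate those of weak peaks. The step was tested on simulated data. Tables and sequences were handled with Python 3.11.15, numpy 2.4.6, pandas 2.3.3, pysam 0.24.0 and Biopython 1.88, and figures with matplotlib 3.10.9. Exact permutation tests went through every split of the samples in Python. Promoter sequences came from RefSeq (GRCm38.p6).

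The members, the lists and the rule for named peaks were chosen with earlier results of these data known. The rule names all promoter peaks, the densest other peak of each gene, the 2 peaks with the lowest p in each direction, and the peaks at the window's edge. 7 more, higher in old MSCs by over 1.6-fold, were named after their values were seen, as stated beside them. Replicate numbers were taken only to name samples. Deviations of same-numbered samples had a correlation of -0.099, which with 2 samples per group cannot exclude a shared batch. The alternatives were values as deposited, quantile normalization, pseudocounts of 0.1 and 5, a filter on low values, plain moderation, the replicate block, limma-voom on recovered counts, a threshold of 0.05, a 5 kb window, gene medians and leaving out each sample. Correcting for peak width and GC content, members other than Ank and the fit over gene windows were added after the data were seen. 1 marker list is not reported here.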

Additional observations from a re-analysis of the deposited data

How the results depend on the processing

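Of 30 named peaks, 22 kept their direction in every alternative run. These include the 7 named for being over 1.6-fold higher in old MSCs and the peaks with the lowest p. Both kinds were picked on these same values, so their part of the tally is no evidence of stability. With 0 member peaks past the threshold as reported, limma gave 0 under every other scaling, pseudocount, filter and moderation, with the replicate block, with limma-voom and with the GC and width correction, 1 at an adjusted p of 0.05, and 0 to 4 with a sample left out. With 1 sample left in a group, that sample is assumed to vary like the other group. Without old replicate 1 the 4 were 3 peaks of Ank (from 27475901, 27485101 and 27560701) and the Dmp1 peak from 104186401. Without old replicate 2 they were the Ank peaks from 27475901, 27485101 and 27522001 and that Dmp1 peak. Among all peaks 66 passed as reported, 10356 without old replicate 1, 1678 without old replicate 2, 8 without young replicate 1, 0 without young replicate 2, 1385 on deposited values, 24 and 92 with pseudocounts of 0.1 and 5, 0 with plain moderation, 1269 with the replicate block, 144 with limma-voom, 185 with the GC and width correction and 15 with the filter. Over the Ank peaks the median was 0.35 to 0.48 in these settings except the deposited values (0.14).

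The median over the member peaks (0.20) became -0.064 on deposited values, 0.17 with quantile normalization, 0.16 with pseudocount 5, 0.15 with the GC and width correction, 0.25 in 5 kb windows (47 peaks), 0.038 as the median of 10 gene medians, 0.031 without Ank, and 0.14 to 0.21 with a sample left out. The share of member peaks lower in old MSCs (27.9%) became 57.4%, 31.1%, 29.5% (both pseudocounts), 34.4%, 21.3% in 5 kb windows, 36.6% without Ank, and 31.1% to 32.8%.

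In all, 8 named peaks reversed with all samples in the fit. On deposited values they were Alpl from 137765401 (-0.23) and from 137792601 (-0.27), Bglap (-0.058), Sparc from 55386101 (-0.19) and from 55423401 (-0.27), and Enpp1 from 24647901 (-0.25). The Enpp1 peak also reversed with quantile normalization (-0.030) and pseudocount 0.1 (-0.00053), and the Bglap2 promoter with limma-voom (0.011). With the GC and width correction the 2 Alpl peaks (-0.15 and -0.10), the Ibsp promoter (0.14) and Sparc from 55423401 (-0.039) reversed. With a sample left out, Alpl from 137765401 ran from -0.14 to 0.16, Alpl from 137792601 from -0.12 to 0.14, the Bglap2 promoter from -0.31 to 0.28, the Ibsp promoter from -0.15 to 0.14, Sparc from 55423401 from -0.065 to 0.092 and Enpp1 from 24647901 from -0.59 to 0.60. The causes were not tested. Whether same-numbered samples shared more than a number is not known, so the block cannot be read as a pairing. The peaks of the Bglap and Bglap2 windows and the far Alpl peak held at most 42 counts in a sample, so counting error is large beside their values.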
